A study of Homo sapiens with 4 samples.

Results

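The genes examined here encode NRF2, its inhibitor KEAP1 and the enzymes and carriers of the antioxidant defence that NRF2 is known to serve, and they were chosen by name as 37 of the 57815 genes in the authors' table. The comparison was between MDA-MB-231, a breast cancer cell line that is triple-negative, and LM2-4175, which derives from it, spreads efficiently to the lung and is named LM2 in the table. Both were grown in the same medium with serum and neither was treated. Extracted total RNA was made into 2 sequencing libraries per cell line with a TruSeq kit. The libraries are pooled in the deposited table as 1 FPKM, with a lower and an upper bound. FPKM is a fragment count scaled by transcript length and by the mapped fragments. Because there is 1 value per gene and cell line, no SD, no p-value and no replicate check can be given, and each cell line is 1 culture history rather than a sample of metastatic lines. Totals of aligned reads per library are stated by the study, but the fragments counted for each gene are not in the table, so the precision of each value was read from its bounds. Whether the bounds include differences between the libraries is not given in the sources used here.

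NRF2, the product of NFE2L2, is a transcription factor that KEAP1 holds for degradation in unstressed cells. Oxidants and electrophiles modify cysteines of KEAP1, NRF2 then accumulates, pairs with small MAF proteins and binds antioxidant response elements beside genes for quinone reduction, glutathione synthesis, the thioredoxin system, iron storage and NADPH supply. Activity of NRF2 is set largely at the protein level, which was not measured here. In cancer cells a high activity of this programme is known for its link to survival under oxidative stress and to drug resistance.

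A gene was tested where its status was OK in both cell lines and its mean was at least 0.5 FPKM, and 13911 genes passed. Its change is the log2 ratio of FPKM + 1 in LM2-4175 over MDA-MB-231, on which changes of low genes come out too small. It was called if it reached 1.5-fold with bounds that did not overlap between the cell lines. The labelled cell type was checked first. Of 5 mesenchymal markers, VIM (1355 FPKM in MDA-MB-231, 1768 in LM2-4175), CD44, EGFR and ZEB1 were present without a call, while the hormone receptors ESR1 and PGR were at 0.04 FPKM or less in both. Of the other markers checked, the epithelial cadherin CDH1 was at 0.851 and 0.366 FPKM. ERBB2, which encodes HER2, was not near 0, with 35.0 FPKM in MDA-MB-231 and 22.8 FPKM in LM2-4175, and was not called. CAV1 and EPCAM were called lower in LM2-4175, CAV1 from 587.3 to 151.1 FPKM and EPCAM from 12.3 to 4.93 FPKM. Of 7 markers of blood and lung in the table, CD14 was listed at 1.17 and 1.75 FPKM and the other 6 at under 0.2 FPKM in both cell lines. The part of these differences in the results below was not tested.

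Of the 37 genes, 36 were tested. GPX2, the glutathione peroxidase of the gut lining, was under the limit, with 0.0491 FPKM in MDA-MB-231 and 0.0732 FPKM in LM2-4175. Called lower in LM2-4175 were 12 of the 36 genes (33.3%), where the same rule called 4.61% of all genes tested. None was called higher, against 4.67% of all genes (9.27% in either direction). By the fold alone 15 were lower and 2 higher, against 11.8% and 10.3% of all genes (22.1% in either direction). The median log2 fold change of the 36 genes was -0.40 (1.32-fold lower), and that of all genes tested was -0.04. The FPKM in LM2-4175 was below that in MDA-MB-231 for 29 of the 36 genes and for 54.5% of all genes, and for 25 and 47.4% when the FPKM of both cell lines were scaled to the same sum. As most of the 36 genes are abundant, the shares were also taken over the 7544 genes with a mean of at least 10 FPKM. Of these 4.73% were called lower, 2.81% higher and 7.54% in either direction, and by the fold alone 11.4% were lower and 6.14% higher. The FPKM was lower in LM2-4175 for 60.5% of these 7544 genes, and their median log2 fold change was -0.09. As there is 1 value per cell line, these shares describe the pooled libraries and were not tested. The members were also chosen with earlier results of these data known.

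**Figure D1:**
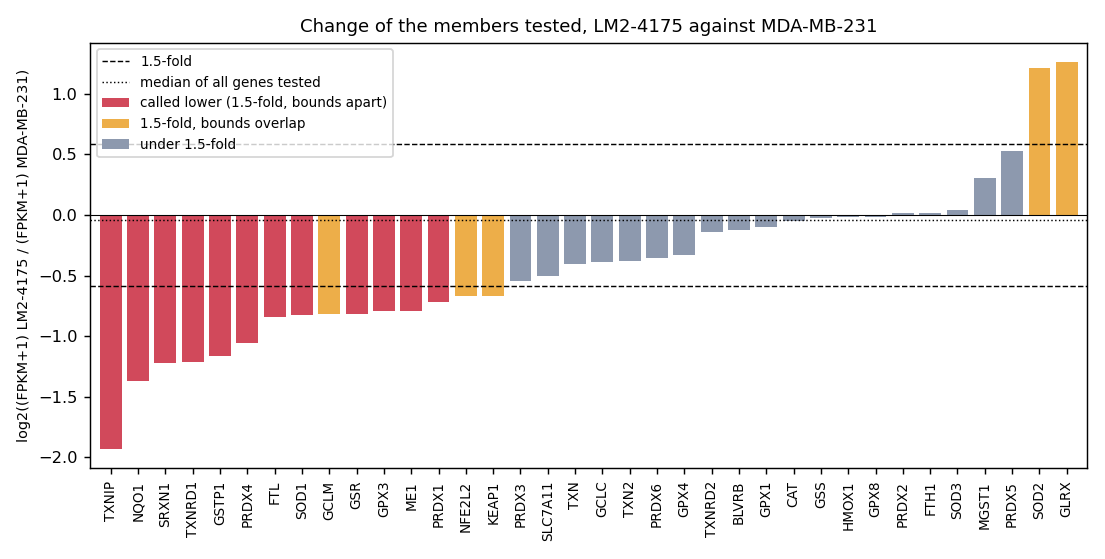
Change of each of the 36 genes tested, as log2 of (FPKM + 1) in LM2-4175 over (FPKM + 1) in MDA-MB-231, sorted, with dashed lines at 1.5-fold and a dotted line at the median of all genes tested (-0.04). The 12 genes called lower run from TXNIP at -1.93 to PRDX1 at -0.72, and GLRX and SOD2 stand past 1.5-fold on the other side with bounds that overlap.

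**Figure D2:**
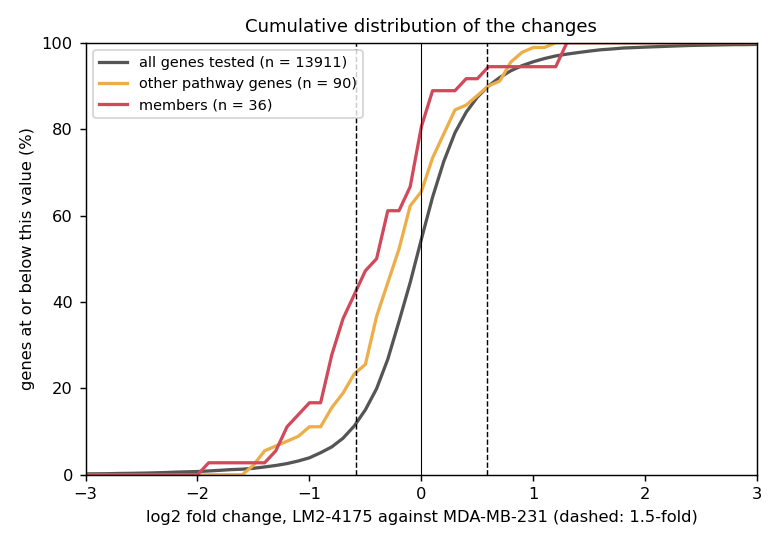
Percentage of genes (y) at or below a given log2 fold change (x) for all 13911 genes tested, 90 other genes of the pathway and the 36 members. The curve of the members lies left of that of all genes over most of its length, with medians of -0.40 and -0.04, and the curve of the other pathway genes lies between them at its median of -0.25.

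The antioxidant response element, the site that NRF2 and a small MAF protein bind, has the core letters TGACNNNGC. To show which genes carry these letters near their starts, the 1000 bases before the start of the canonical GENCODE 44 transcript were read from GRCh37, the build of the table, on both strands, a window chosen after the data were seen. Such a window was found for 35 of the 37 genes, and 18 of them (51.4%) hold the letters. So do 32.6% of the windows of 19123 protein-coding genes and 33.7% of those of the 12033 tested. Among the genes called lower the count is 7 of 11, and among the others 11 of 24. The matches of 5 genes called lower are printed here, and last that of GCLM, which fell short of the call. They are written along the gene's strand with the match in capitals, which reads GCNNNGTCA where it lies on the opposite strand.
NQO1 (chr16:69760900-69760928, minus strand, ending 446 bases before the start): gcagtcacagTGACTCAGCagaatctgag
GSTP1 (chr11:67351207-67351235, plus strand, 57 bases before): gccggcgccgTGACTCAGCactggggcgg
ME1 (chr6:84140889-84140917, minus strand, 128 bases before): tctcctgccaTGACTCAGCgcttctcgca
TXNRD1 (chr12:104609448-104609476, plus strand, 90 bases before): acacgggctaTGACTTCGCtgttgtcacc
PRDX1 (chr1:45987679-45987707, minus strand, 132 bases before): gagggaaagcGCCGAGTCAttccggcggg
GCLM (chr1:94375002-94375030, minus strand, 25 bases before): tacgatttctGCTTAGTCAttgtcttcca
NQO1, GSTP1 and ME1 share all 9 letters of the match, TGACTCAGC. This run was picked after the matches were seen, and it stands on either strand in 1.31% of the windows of all protein-coding genes and in 4 of the 35 windows of the members, the fourth being that of GPX4, which was not called. In the RefSeq promoters (250 bases before to 50 after the start, GRCh38.p14), which were given for 28 of the 37 genes, the letters TGACNNNGC stand in 5 (17.9%). They stand in 13.6% of 27305 promoters and in 15.1% of the 9452 promoters of genes tested. A match describes letters only, and a window without one says nothing about NRF2 at that gene, whose elements may lie further away.

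The regulators NFE2L2 and KEAP1 had nearly the same ratio between the cell lines and neither was called by the rule used here. The study used its own test of differential expression, and its motif analysis showed only transcription factors that passed it. It lists NFE2L2 among the factors that interacted with many others in LM2-4175, a prediction from shared target genes. NFE2L2 on chromosome 2 (ENSG00000116044) was at 65.8 FPKM (44.1 to 87.5) in MDA-MB-231 against 41.1 FPKM (26.8 to 55.3) in LM2-4175, where the range in parentheses, here and below, runs from the lower to the upper bound. KEAP1 (chromosome 19, 10596801 to 10614234, minus strand), which recruits a ubiquitin ligase to NRF2, was at 40.7 FPKM (29.0 to 52.3) and 25.3 FPKM (18.5 to 32.0). Both log2 fold changes were -0.67, past 1.5-fold, and the bounds overlap for both genes. In GENCODE 44 exons of other genes cover 38.4% of the exon bases of NFE2L2, mostly HNRNPA3 on the opposite strand, which was listed at 216.3 and 188.2 FPKM. The FPKM was computed on GENCODE 19, however, and HNRNPA3 is not among the genes that share the locus deposited for NFE2L2. AGPS does share it and was listed at 20.7 FPKM in MDA-MB-231 and 14.5 FPKM in LM2-4175. Whether reads of HNRNPA3 or AGPS entered the FPKM of NFE2L2 was not tested. No other gene's exon overlaps KEAP1.

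**Figure D3:**
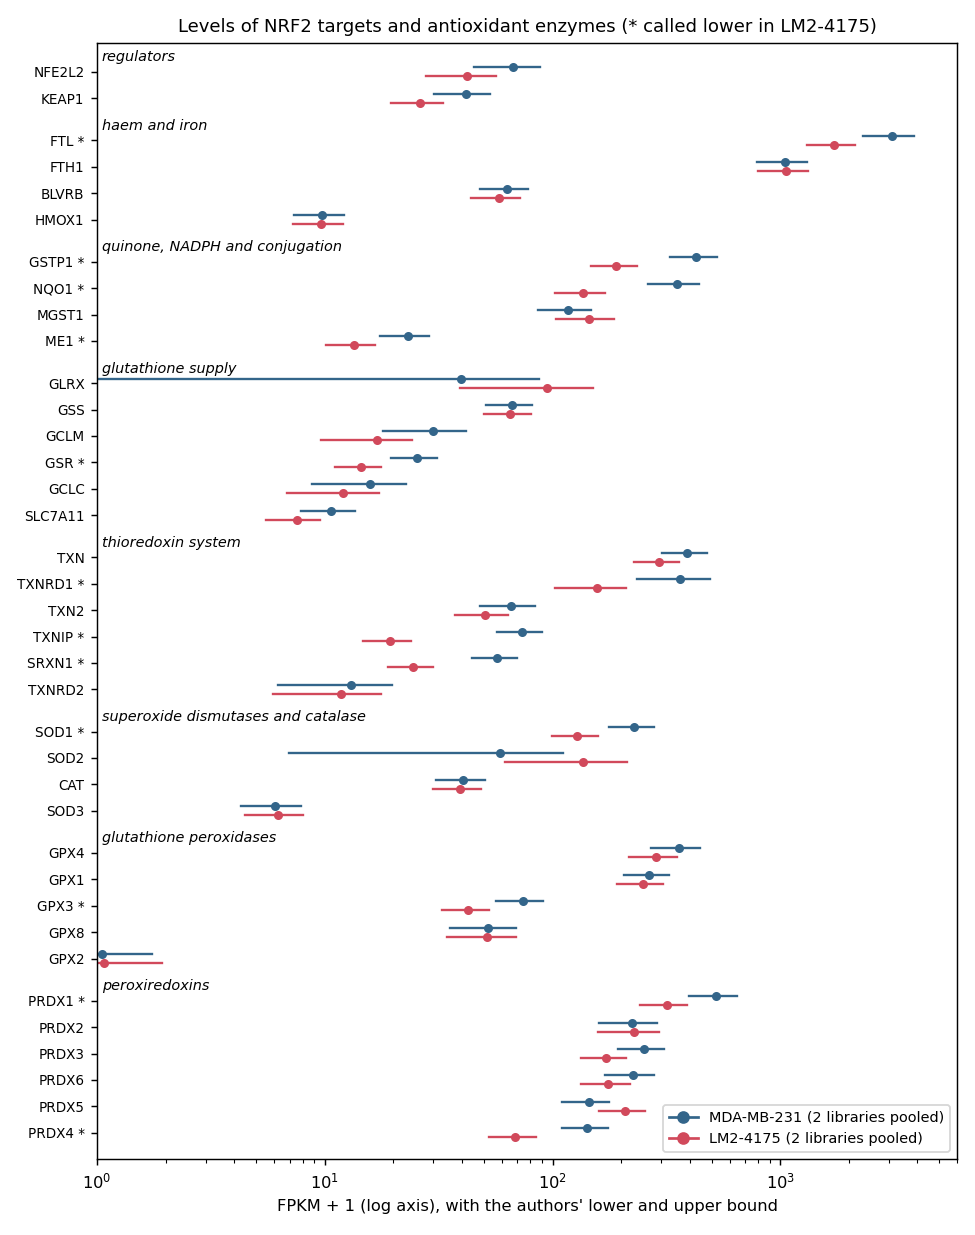
FPKM + 1 on a log axis of all 37 genes by role, with a point for the FPKM and a line from the authors' lower to their upper bound, blue for MDA-MB-231 and red for LM2-4175. FTL and FTH1 are the most abundant, and the lines of the 12 genes marked with an asterisk do not overlap, while those of GLRX and SOD2 are among the widest of the genes above 1 FPKM.

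The largest falls outside the thioredoxin system were in enzymes that handle quinones and electrophiles. NQO1, which reduces quinones by 2 electrons, is a standard read-out of NRF2 activity. It lies on chromosome 16 from 69740899 to 69760571 on the minus strand (ENSG00000181019) and was at 350.4 FPKM in MDA-MB-231 (262.0 to 438.7) and 134.7 FPKM in LM2-4175 (101.2 to 168.2). It fell 2.60-fold, with a log2 fold change of -1.37. A gene on the opposite strand that covers 19.4% of its exon bases was listed at 0 in both cell lines. GSTP1, the pi class glutathione transferase, which joins glutathione to electrophiles (ENSG00000084207, chromosome 11, 67351213 to 67354127, plus strand), was at 427.4 FPKM (328.4 to 526.5) in MDA-MB-231 against 189.8 FPKM (145.8 to 233.7) in LM2-4175. It fell 2.25-fold, a log2 fold change of -1.17, and moved from rank 200 to rank 424 of the genes tested. ME1, the cytosolic malic enzyme, which makes NADPH (chromosome 6, 83920121 to 84140770, minus strand), was lower in level and in change, with 22.1 FPKM (16.6 to 27.7) and 12.4 FPKM (9.10 to 15.6). Its log2 fold change of -0.79 was called with bounds 0.916 FPKM apart. MGST1, a membrane-bound glutathione transferase of the same role, was not called, with 116.2 FPKM (85.5 to 146.8) in MDA-MB-231 against 143.6 FPKM (102.2 to 185.0) in LM2-4175.

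In the thioredoxin system 3 of 6 genes were called lower, and the other 3 had log2 fold changes of -0.41 to -0.14. TXNIP, which binds and inhibits thioredoxin and limits glucose uptake, had the largest change of all members. It was at 72.4 FPKM (56.1 to 88.7) in MDA-MB-231 against 18.3 FPKM (13.7 to 22.8) in LM2-4175, so that it fell 3.96-fold (ENSG00000117289, chromosome 1, 145438469 to 145442635 as deposited). It is best known as a target of glucose-sensing transcription factors. TXNRD1, the cytosolic selenoenzyme that recharges thioredoxin with NADPH (ENSG00000198431, chromosome 12, 104609557 to 104744085, plus strand), fell 2.33-fold, from 362.8 FPKM (234.4 to 491.3) to 155.5 FPKM (101.4 to 209.7). SRXN1, the sulfiredoxin that rescues over-oxidised peroxiredoxins (ENSG00000271303, chromosome 20, 627259 to 633844, minus strand), fell 2.39-fold, from 56.1 FPKM (43.3 to 68.8) to 23.5 FPKM (18.0 to 28.9). Its log2 fold change of -1.22 was equal to that of TXNRD1 to 2 decimals. A gene on the same strand covers 90.7% of the exon bases of SRXN1 and was listed at 0 in both cell lines, so how reads were split between them is uncertain. TXN, the cytosolic thioredoxin and the highest of these 6 genes, was at 388.8 FPKM (300.4 to 477.1) in MDA-MB-231 against 293.2 FPKM (226.8 to 359.5) in LM2-4175, with bounds that overlap. The mitochondrial partners TXN2 and TXNRD2 were listed at 64.8 and 12.0 FPKM in MDA-MB-231, compared with 49.5 and 10.8 FPKM in LM2-4175, and neither was called. TXNRD1 was the lower of the pair TXN and TXNRD1 in LM2-4175, with bounds apart (209.7 against 226.8 FPKM). In MDA-MB-231 the FPKM of each lay within the bounds of the other.

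Of the 6 genes of glutathione supply, GSR alone (16.7%) was called lower, against 4.61% of all genes. GSR, the reductase that returns oxidised glutathione to its reduced form (ENSG00000104687, chromosome 8, 30535583 to 30585363, minus strand), was listed at 24.4 FPKM (18.6 to 30.2) in MDA-MB-231 against 13.4 FPKM (10.1 to 16.7) in LM2-4175, and its log2 fold change was -0.82. GCLM, the modifier subunit of the first and rate-limiting enzyme of glutathione synthesis, had the same log2 fold change of -0.82, from 28.8 to 15.9 FPKM, but its bounds overlap. Its catalytic partner GCLC was at 14.8 FPKM (7.75 to 21.8) and 11.1 FPKM (5.80 to 16.3). SLC7A11, which imports cystine for glutathione, was at 9.67 FPKM (6.84 to 12.5) and 6.51 FPKM (4.54 to 8.48), and its log2 fold change of -0.51 was under 1.5-fold. GSS, the second enzyme of the synthesis, was at 65.2 and 64.2 FPKM. GLRX, a glutaredoxin that removes glutathione from proteins, had the largest change towards LM2-4175, from 38.6 to 93.9 FPKM (log2 fold change 1.26), without a call. Its lower bound in MDA-MB-231 was 0 and its upper bound of 86.1 FPKM lay above the lower bound of 38.1 FPKM in LM2-4175. GLRX shares its deposited locus with RHOBTB3, which was listed at 87.1 FPKM in MDA-MB-231 and 40.4 FPKM in LM2-4175, nearly the mirror of GLRX. Whether reads were divided differently between these genes in the cell lines was not tested.

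Haem and iron genes differed from one another. FTL, the light chain of ferritin, was the highest member in both cell lines, at rank 13 of all genes tested in MDA-MB-231 and rank 31 in LM2-4175 (ENSG00000087086, chromosome 19, 49468566 to 49470136, plus strand). It was at 3080.4 FPKM (2298.8 to 3861.9) and 1720.8 FPKM (1307.8 to 2133.8), and it fell 1.79-fold. FTH1, the heavy chain that oxidises iron for storage, was at 1049.1 FPKM (786.7 to 1311.5) and 1062.8 FPKM (797.6 to 1328.0), at rank 78 in both. The FPKM of the light chain over that of the heavy chain thus came to 2.94 in MDA-MB-231 and 1.62 in LM2-4175. Both ferritin genes have many processed copies in the genome, and the 41 copies named in the table were each listed at no more than 0.745 FPKM. HMOX1, the inducible haem oxygenase and a common marker of NRF2 activation, was low, with 8.74 FPKM (6.35 to 11.1) in MDA-MB-231 against 8.64 FPKM (6.24 to 11.0) in LM2-4175. BLVRB, which reduces biliverdin and flavins, was at 62.1 and 57.0 FPKM. The bounds of FTH1, HMOX1 and BLVRB overlap between the cell lines, and each FPKM lies within the bounds of the other cell line.

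Among the superoxide dismutases, which turn superoxide into hydrogen peroxide, the cytosolic enzyme was called lower and the mitochondrial one, with a higher FPKM in LM2-4175, was not called. SOD1, the cytosolic copper and zinc enzyme (ENSG00000142168, chromosome 21, 33031979 to 33041244, plus strand), fell from 227.0 FPKM (175.4 to 278.6) to 127.6 FPKM (98.3 to 156.9), and its log2 fold change was -0.83. SOD2, the mitochondrial manganese enzyme and a known target of NF-kB, was at 58.0 FPKM in MDA-MB-231 and 135.7 FPKM in LM2-4175, and its log2 fold change was 1.21. It was not called, because its bounds of 5.94 to 110.1 and 60.6 to 210.8 FPKM overlap. The SOD2 entry shares its deposited locus with 7 other genes, among them TCP1, which was listed at 199.4 and 161.3 FPKM, and ACAT2, listed at 74.4 and 51.5 FPKM. SOD3, the secreted form, was at 5.07 FPKM (3.30 to 6.84) and 5.24 FPKM (3.46 to 7.02), and its log2 fold change was 0.04. Catalase (CAT), which breaks down hydrogen peroxide in peroxisomes, was at 39.6 and 38.2 FPKM. SOD1 exceeded SOD2 in MDA-MB-231 with bounds apart (175.4 against 110.1 FPKM). In LM2-4175 their FPKM of 127.6 and 135.7 lay within each other's bounds.

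The glutathione peroxidases reduce peroxides with glutathione, and 1 of the 4 tested was called. GPX3, the secreted plasma form (ENSG00000211445, chromosome 5, 150400152 to 150408549, plus strand), fell 1.75-fold, from 72.9 FPKM (55.7 to 90.0) to 41.7 FPKM (31.6 to 51.7), with bounds 4.02 FPKM apart. GPX4, which protects membranes from lipid peroxides and blocks ferroptosis, was the highest of them, at 357.1 FPKM (270.8 to 443.4) in MDA-MB-231 against 283.1 FPKM (216.3 to 349.9) in LM2-4175. GPX1, the general cytosolic form, was at 264.7 and 247.4 FPKM, and GPX8, of the endoplasmic reticulum, at 51.1 and 50.6 FPKM. Neither GPX4, GPX1 nor GPX8 was called.

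The peroxiredoxins are abundant thiol peroxidases, and their FPKM summed to 1500.9 in MDA-MB-231 and 1161.2 in LM2-4175. PRDX1, a cytosolic NRF2 target, was the highest of them (ENSG00000117450, chromosome 1, 45976586 to 46008404, minus strand). It was at 519.7 FPKM (396.4 to 642.9) in MDA-MB-231 against 315.8 FPKM (241.5 to 390.2) in LM2-4175, and its log2 fold change of -0.72 is not called when the FPKM of both cell lines are scaled to the same sum. MMACHC on the opposite strand, listed at 4.48 and 5.50 FPKM, covers 29.8% of its exon bases. PRDX4, the form of the endoplasmic reticulum (ENSG00000123131, chromosome X, 23682379 to 23704514, plus strand), fell 2.10-fold, from 141.2 FPKM (109.0 to 173.5) to 67.4 FPKM (51.4 to 83.3). PRDX3, of the mitochondria, was at 250.5 FPKM (193.6 to 307.3) and 170.9 FPKM (132.3 to 209.5), under 1.5-fold with overlapping bounds. PRDX6, which also acts on phospholipids, was at 223.8 and 174.8 FPKM, and PRDX2, the form abundant in red blood cells, at 222.9 and 225.8 FPKM. PRDX5, found in several organelles, was at 142.8 FPKM (109.3 to 176.4) in MDA-MB-231 against 206.6 FPKM (158.7 to 254.4) in LM2-4175, and its log2 fold change of 0.53 was not called. PRDX4 and PRDX5 were level in MDA-MB-231, and in LM2-4175 their bounds were apart, with PRDX5 the higher.

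To see whether the members moved with the genes around them, each was set beside the protein-coding genes tested that lie within 3 Mb. The median log2 fold change of these neighbours ran from -0.72 to 0.48 over the 36 genes and from -0.72 to 0.12 over the 12 genes called lower. PRDX4 had the lowest, with a median of -0.72 over 12 neighbours on chromosome X, and its own log2 fold change was -1.06. SOD1 followed, with -0.32 over 35 neighbours. After the median of the neighbours was subtracted, 10 of the 12 genes were still at least 1.5-fold lower, and PRDX4 (-0.34) and SOD1 (-0.50) were not. The differences were -1.95 for TXNIP, -1.27 for NQO1, -1.03 for TXNRD1, -1.02 for SRXN1 and -0.96 for GSTP1. SLC7A11 had the highest neighbours, with a median of 0.48 over 13 genes, against its own -0.51. The 12 genes had been picked for a fall of at least 1.5-fold, and no such count was taken over all genes called. The 10 of 12 therefore describes these genes only. The numbers of gene copies were not measured.

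**Figure D4:**
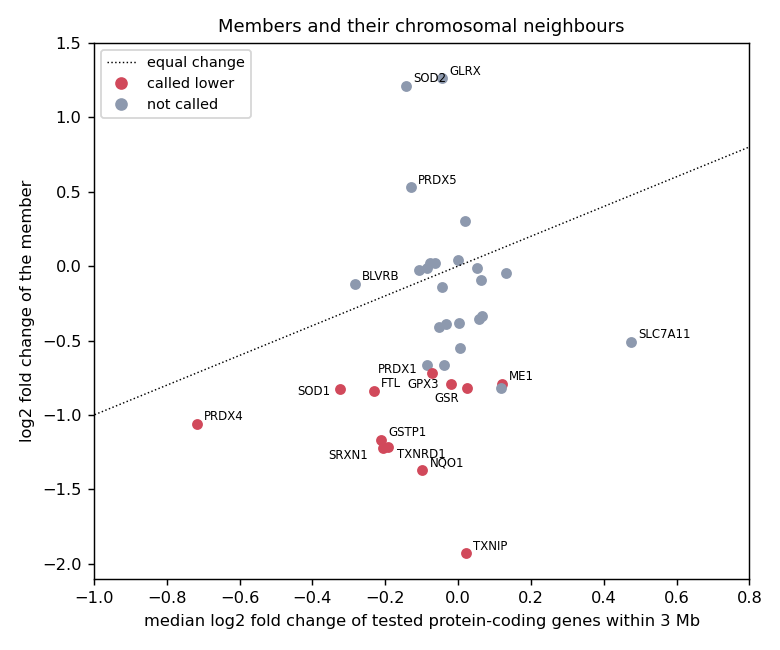
Log2 fold change of each member tested (y) against the median log2 fold change of the protein-coding genes tested that lie within 3 Mb (x), with a dotted line at equal change and the 12 genes called lower in red. TXNIP, NQO1 and TXNRD1 lie far below the line, PRDX4 (-1.06 against -0.72) lies nearest to it among the genes called, and GLRX and SOD2 lie above it.

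A list of 95 other genes of the pathway, also chosen with earlier results of these data known, was then counted by the same rule. Of 90 tested, 14 (15.6%) were called lower and 2 (2.22%) higher, where 4.61% and 4.67% of all genes were. When scaled to the same sum 12 were called lower and 4 higher, where 541 and 737 of 13974 genes were. Their median log2 fold change was -0.25. The largest falls were in ABCC3, GPX7, EPHX1, PIR and TRIM16. ABCC3, an exporter of conjugated compounds, fell from 19.3 FPKM (10.3 to 28.2) to 5.89 FPKM (2.61 to 9.17). GPX7, a peroxidase of the endoplasmic reticulum, fell from 2.83 FPKM (1.79 to 3.86) to 0.318 FPKM (0.0991 to 0.537). EPHX1, the microsomal epoxide hydrolase, fell 2.87-fold, from 49.0 to 17.1 FPKM. PIR, an iron-binding nuclear protein, fell from 10.6 FPKM (7.37 to 13.8) to 3.33 FPKM (2.08 to 4.58), and TRIM16, a ubiquitin ligase, from 43.8 FPKM (31.4 to 56.1) to 15.9 FPKM (9.88 to 21.8).

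By role, the 5 tested genes listed only as further NRF2 targets had the lowest median, -1.18. Of these, 3 (60.0%) were called lower, against 4.61% of all genes. The pentose phosphate and NADPH genes all had a lower FPKM in LM2-4175 (6 of 6, log2 fold changes of -0.84 to -0.32), as had 54.5% of all genes. Among the 6 genes 1 (16.7%), the transketolase TKT, was called, from 429.8 to 239.3 FPKM. Of 13 further glutathione transferases 2 (15.4%) were called lower, and of 12 aldo-keto and carbonyl reductases also 2 (16.7%). The shares of these small groups were not tested against the 4.61% of all genes. The group of NRF2 regulators and partners had a median of 0.13, with none of 15 called lower and 2 (13.3%) called higher, against 4.61% and 4.67% of all genes, and its difference from the other roles was not tested. DPP3, a peptidase that binds KEAP1, was at 50.1 FPKM (30.6 to 69.6) and 27.5 FPKM (16.3 to 38.8), past 1.5-fold lower with bounds that overlap. The genes called higher were MAFF, a small MAF protein that pairs with NRF2, from 14.4 FPKM (10.6 to 18.3) to 32.2 FPKM (24.4 to 40.1), and KLF9, a transcription factor, from 1.82 to 3.91 FPKM, which a filter at a mean of 5 FPKM leaves out. MAFG and MAFK, the other small MAF genes, were listed at 19.8 and 7.35 FPKM in MDA-MB-231, compared with 17.9 and 9.22 FPKM in LM2-4175. BACH1, a repressor that competes with NRF2 for its sites, was at 13.0 and 17.7 FPKM, CUL3, the scaffold of the ligase that KEAP1 serves, at 33.5 and 39.2 FPKM, and SQSTM1, which draws KEAP1 away for autophagy, at 216.2 and 255.7 FPKM. None of these 5 genes was called.

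**Figure D5:**
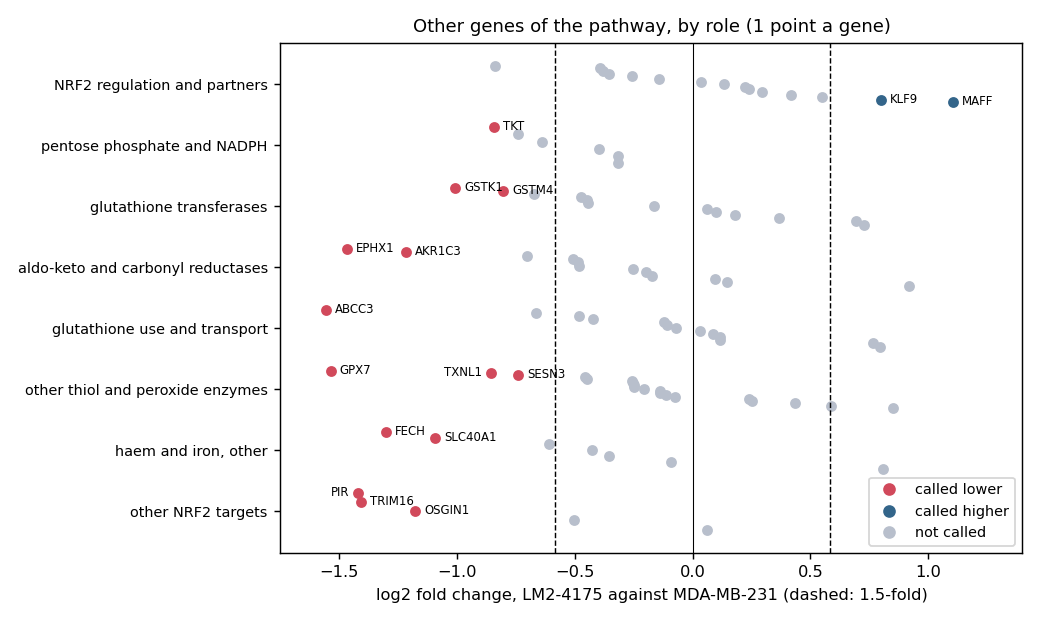
Log2 fold change (x) of the 90 other pathway genes tested, 1 point a gene, by role, with dashed lines at 1.5-fold, red for the 14 called lower and blue for MAFF and KLF9, which were called higher. The red points stand in 7 of the 8 roles, and the role of NRF2 regulation and partners has none.

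In sum over levels, the 37 genes held 8937.6 FPKM in MDA-MB-231 and 6242.5 FPKM in LM2-4175, or 1.41% and 1.04% of the FPKM of all genes. FTL alone made up 3080.4 and 1720.8 FPKM of these. In each cell line 16 of the 36 genes tested were at 100 FPKM or more, and 16 were among the 1000 highest genes tested. The 36 genes had a median of 69.1 FPKM in MDA-MB-231 and 65.8 FPKM in LM2-4175, where that of all genes tested was 11.9 and 11.6.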

How the data were processed

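Total RNA of 2 libraries each of MDA-MB-231 and LM2-4175 was sequenced as paired reads. Alignment to hg19 (TopHat 2.0, by the authors) was followed by quantification of GENCODE 19 genes with Cufflinks and Cuffdiff (Cuffdiff and TopHat2 per the submitters' processing notes). The deposited table holds for each gene and cell line 1 FPKM, its bounds and a status, which the authors computed over the pooled libraries. The normalization of library sizes and the use of strand are not given in the sources used here. The fragments counted per gene are not in the table, and an exact 0 can be a failed estimate. No column of other samples was present.

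Values were read in Python 3.11.15 with pandas 2.3.3 and NumPy 2.4.6 and drawn with Matplotlib 3.10.9. The limma fit foreseen for values per library could not be run on pooled values, so calls rest on a pseudocount of 1, a mean of at least 0.5 FPKM, a fold of 1.5 and bounds that do not overlap. The members and lists were chosen with earlier results of these data known. All members are named. Given in full are those called, NFE2L2, KEAP1, the 5 largest changes each way and the highest of each role, and bounds of further genes were added after their values were seen. Of the pathway list the called genes are named, at most 5 each way, and TKT, DPP3, MAFG, MAFK, BACH1, CUL3 and SQSTM1 were chosen after their values were seen. Positions and exon overlaps come from GENCODE 44 on GRCh37, in which 99.99% of the 55535 genes matched by Ensembl ID overlap their deposited locus. TXNIP and SOD2 were not matched by ID. Promoter sequences are from RefSeq on GRCh38.p14. Some items are not reported here.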

Additional observations from a re-analysis of the deposited data

How the results depend on the processing

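No paired analysis was possible because the authors' table gives 1 pooled value per cell line, and for the same reason no library could be left out. The 21 members given in full kept the sign of their log2 fold change under each alternative in which they were tested. TXNIP, NQO1, SRXN1, TXNRD1, GSTP1 and PRDX4 were called lower under each of these. With a fold of 2 these 6 members (16.7%) were the ones called lower, where 2.90% of all genes tested were. At that fold 1 pathway gene was called higher, where 450 of 13911 genes were. By the fold alone 2 of 36 members (GLRX and SOD2) and 10 of 90 pathway genes were called higher, where 10.3% of all genes were. With a filter at a mean of 5 FPKM 1 pathway gene was called higher, and with the FPKM scaled to the same sum 4 were. In these settings 321 of 9519 and 737 of 13974 genes were called higher. Scaling to the same sum and centring on the median of all genes each left 11 members (30.6%) called lower, without PRDX1. Of all genes 3.87% and 4.11% were called lower in these settings. Members below 0 numbered 25 and 26 in place of 29, while under the scaling the share of all genes below 0 went from 54.5% to 47.4%. The ratio without a pseudocount left 12 of 36 members called lower, where 4.64% of all genes were. The removal of 7 members with over 10% of exon bases in other genes left 9 of 29, where 4.61% of all genes were. Both settings were added after the data were seen. Counts per gene are not in the table, and wide bounds limit what can be called for GLRX, SOD2, GCLC and TXNRD2.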
